A study of Homo sapiens with 2 samples.

Results

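The genes described here were those with 2 or more measured probes on the array, all of which gave a higher signal in siRNA-treated than in siRNA-untreated Y79 retinoblastoma cells. They were 24 of 2917 genes with 2 or more measured probes, or 0.823% of them, while 7.66% of all measured probes taken singly were higher by the same threshold of 0.3. A probe counted as measured where its spot was well above background and not saturated on both arrays, carried no outlier flag and lay outside a corner of the array (rows from 355 and columns from 43) that was set after an earlier look at these arrays. With the corner kept, 34 of 3966 genes (0.857%) met the rule, 21 of them among the 24. A gene was taken where the log2 ratio of the processed signal, siRNA-treated over siRNA-untreated, was 0.3 or more at every measured probe, which is a fold of at least 1.23. The members were thus chosen by these same ratios, which are given as a description of these 2 arrays.

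The comparison was between 2 groups of cells, with 1 array each. One was Y79 cells labelled untreated, and the other was Y79 cells harvested 48 h after treatment with siRNA against Ep-CAM (TACSTD1), the epithelial cell adhesion molecule. Y79 cells were derived from a human retinoblastoma, a tumor of the retina, and grow as a suspension culture. By the study's text, though not by the sample labels, both cultures had been exposed beforehand to 5′-azacytidine, a DNA demethylating agent. The labels and the study's results call the control untreated, while a legend in the study names a nonsilencing siRNA as the reference. The labels are followed here, and if they hold, an effect of siRNA against Ep-CAM and one of transfection cannot be told apart. No error between cultures can be given with 1 array per group, and no test was made. The error given with each log2 ratio is the scanner software's own error of the 2 spots, carried over to the ratio, and covers the arrays only. The medians of the 2 arrays, 48.9 untreated and 50.1 siRNA-treated, were used to scale the ratios, while signals are given unscaled in arbitrary units. The Ep-CAM probe read 15.6 without and 12.0 with the siRNA and was well above background on 0 of the 2 arrays, so these arrays do not check the knockdown. Of the 10 markers of photoreceptor-like cells with a probe on the array 5 were well above background on both arrays, and NRL, RCVRN, RXRG, THRB and PDE6H were not. Of the markers of other cells 6 of 7 for Müller glia, 6 of 7 for macrophages, 6 of 7 for epithelium, 5 of 7 for fibroblasts and 4 of 6 for endothelium were. A gene counted here with any of its probes. Of all non-control spots 70.4% untreated and 68.0% siRNA-treated were well above background. The marker counts are thus not read as signs of these cell types.

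A short oligonucleotide on an expression array reads a stretch of a transcript. Reading a gene with separate probes guards against the faults of a single spot, but probes of a gene on the same array share the labeled RNA, the hybridization and the scan. Where probes lie in different exons or near different ends of the transcript, they can also read different transcripts of the gene. The 24 members came from many branches of cell biology: bZIP and homeobox transcription factors, effectors of membrane traffic, ion channels and their kinases, and enzymes of sulfation and of sugar chains.

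MAFG and SYTL1 had the largest ratios of the members at their lower probe, and PTOV1 was the other gene kept in 7 of the 8 settings described further on. The promoters of these 3 genes are shown because they are the members that the rule kept in the most of these settings (7 of 8). Some of the 8 could lose no member, as described further on. They are RefSeq sequences of GRCh38.p14 from 250 bases before to 50 bases after the start of the gene, on the strand of the gene, and capitals mark matches to the motifs named after them. MAFG lies at chr17:81927686-81927985 on the minus strand, SYTL1 at chr1:27341772-27342071 and PTOV1 at chr19:49850455-49850754, both on the plus strand.
MAFG: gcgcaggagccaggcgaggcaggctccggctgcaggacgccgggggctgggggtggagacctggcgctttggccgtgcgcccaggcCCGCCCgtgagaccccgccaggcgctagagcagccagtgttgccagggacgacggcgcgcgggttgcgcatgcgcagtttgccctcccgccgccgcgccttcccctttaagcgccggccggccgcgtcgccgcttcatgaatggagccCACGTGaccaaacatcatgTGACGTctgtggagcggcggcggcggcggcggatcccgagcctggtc
SYTL1: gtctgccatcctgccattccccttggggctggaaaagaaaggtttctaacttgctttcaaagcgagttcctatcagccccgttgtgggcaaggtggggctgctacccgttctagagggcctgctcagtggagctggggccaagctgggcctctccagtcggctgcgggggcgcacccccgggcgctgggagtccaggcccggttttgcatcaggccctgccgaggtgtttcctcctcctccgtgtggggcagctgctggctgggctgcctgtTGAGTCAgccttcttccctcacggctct
PTOV1: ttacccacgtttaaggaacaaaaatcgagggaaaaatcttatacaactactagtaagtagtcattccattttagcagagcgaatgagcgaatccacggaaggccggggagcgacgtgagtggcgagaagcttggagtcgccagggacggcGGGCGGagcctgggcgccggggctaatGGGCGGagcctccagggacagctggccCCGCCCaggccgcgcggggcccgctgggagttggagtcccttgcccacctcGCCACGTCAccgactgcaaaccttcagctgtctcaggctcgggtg
In the MAFG promoter the capitals are a GC box (GGGCGG, here on the other strand), a palindromic E-box (CACGTG) and a cAMP response element core (TGACGT). In the SYTL1 promoter they are an AP-1 site (TGAGTCA). In the PTOV1 promoter they are 3 GC boxes and a stretch that holds an antioxidant response element core (TGACNNNGC), the site read by small MAF dimers, overlapping a cAMP response element core. The reference table held a promoter for 15 of the 24 members. A GC box was found in 9 of the 15 (60%) and in 45.0% of all 35116 promoters in the table. The cAMP response element core was found in 2 of 15 (13.3%, against 7.98% of all), the E-box in 2 (13.3% against 7.26%), the antioxidant response element core in 3 (20%, against 13.3%) and the AP-1 site (TGAGTCA or TGACTCA) in 1 (6.67% against 4.95%). The CCAAT box (CCAAT) was found in 4 (26.7% against 34.6%) and the TATA box (TATAAA) in 2 (13.3% against 11.5%). The core read by the photoreceptor factor CRX (TAATCC) was found in 0 of 15, against 6.36% of all promoters. Both strands were searched, and the antioxidant response element and CRX motifs were added after the members were known. These matches describe letters in the window and were not tested.

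Signal levels of the members were low. Over their 48 measured probes the untreated signal ran from 16.7 to 1922 with a median of 43.4, while the median over the 6418 probes of all genes with 2 or more measured probes was 117. Of the member probes 30 (62.5%) read under 60, against 29.3% of all such probes, and 17 read under 30. The dimmest spot counted as well above background read 14.9 without and 17.5 with the siRNA. All 24 members had exactly 2 measured probes. Of genes with 2 measured probes 24 of 2449 (0.980%) were higher at both, and of genes with 3 measured probes 0 of 391. The members lay on 13 chromosomes, with at most 3 on any of them (chromosomes 3, 6 and 17).

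**Figure D1:**
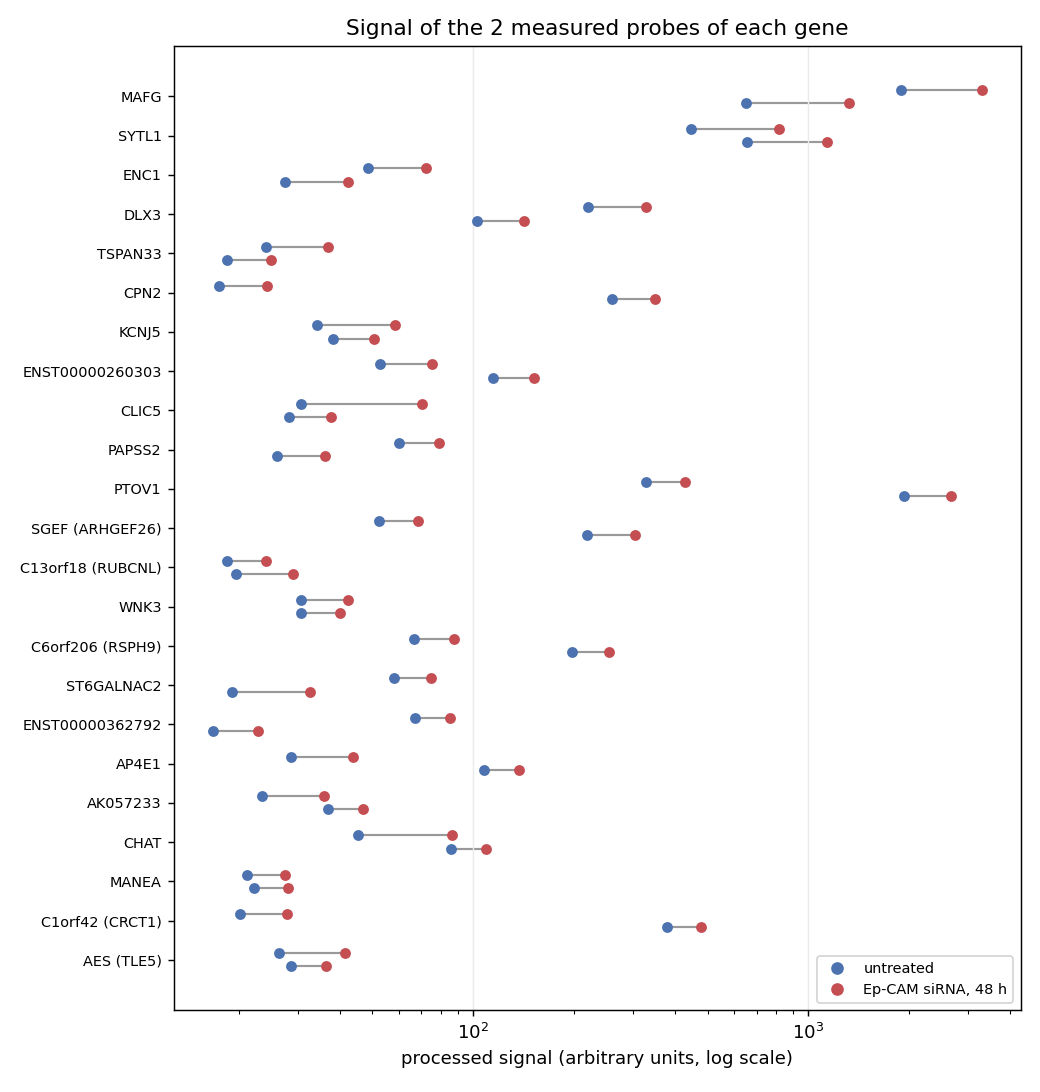
Processed signal (arbitrary units, log scale) of the 2 measured probes of 23 of the 24 genes in untreated (blue) and siRNA-treated (red) Y79 cells, 1 array each, ordered by the lower of the 2 log2 ratios. MAFG, SYTL1, DLX3, PTOV1 and C6orf206 have both probes above a signal of 60 in untreated cells, and most others lie near the dim end.

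The share of genes higher at every probe differed with brightness. Where every probe read 60 or less in untreated cells, 11 of 282 genes (3.9%) were higher at every probe and 4 (1.42%) lower at every probe, at -0.3 or less. Where every probe read over 60, 5 of 1430 (0.35%) were higher and 101 (7.06%) lower. The 5 were MAFG, SYTL1, DLX3, PTOV1 and C6orf206. The untreated signal is the denominator of the ratio, so a low reading there raises the ratio by itself. Split by the siRNA-treated signal instead, 7 of 264 dim genes (2.65%) and 9 of 1457 bright genes (0.618%) were higher, and split by the geometric mean of both signals 9 of 272 (3.31%) and 7 of 1449 (0.483%). Over all brightness levels 133 genes (4.56%) were lower at every probe, and their probes had a median untreated signal of 751. Dim spots also repeat less well. Among 187 probes printed repeatedly on each array, the SD of the log2 ratio over spots had a median of 0.20 for signals under 60, 0.14 from 60 to 120, 0.10 from 120 to 500 and 0.08 above 500. The part of this spread in the choice of the members was not tested.

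MAFG, a small MAF protein that has no activation domain of its own and binds DNA as a partner of factors such as NFE2L2 and BACH2, had the highest mean ratio. Its probe at chr17:77469519-77469578 (array design coordinates, hg17) read 653 without and 1325 with the siRNA. Its other probe, 3556 bases away at chr17:77473075-77473134, read 1889 and 3296. The log2 ratios were 0.99 ± 0.20 and 0.77 ± 0.20 (propagated spot error), folds of 1.98 and 1.70, so both probes were brighter in the siRNA-treated cells by well over their errors. The spots around the latter probe had a median log2 ratio of 0.31, the highest around any member probe, and its background carried an outlier flag, while the spots around the former were at -0.02. With the median of the neighbouring spots subtracted, the lower ratio of MAFG was 0.46.

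SYTL1 encodes a synaptotagmin-like protein that binds RAB27 on secretory vesicles. One probe, in a single exon, read 655 without and 1140 with the siRNA. The other reads across a splice junction, chr1:27362165-27363951 (hg17, plus strand), and read 447 and 819.
SYTL1 junction probe: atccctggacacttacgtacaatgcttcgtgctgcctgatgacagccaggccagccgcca
The log2 ratios were 0.76 ± 0.20 and 0.84 ± 0.20, folds of 1.70 and 1.79. Both SYTL1 probes thus gave nearly the same ratio at similar brightness, and their neighbours had median log2 ratios of -0.07 and -0.08. MAFG and SYTL1 were the 2 members in which every probe reached a fold of 1.5, and in 0 members did every probe reach a fold of 2.

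Other transcription regulators followed at smaller ratios. DLX3, a distal-less homeobox factor, read 221 without and 327 with the siRNA at one probe and 102 and 142 at the other, with log2 ratios of 0.53 ± 0.21 and 0.43 ± 0.22. Both probes were bright enough to lie clear of the background on both arrays. PTOV1, a regulator first described in prostate tumors, held the brightest member probe in untreated cells. It read 1922 and 2664 at that probe and 327 and 429 at the other, with log2 ratios of 0.44 ± 0.20 and 0.36 ± 0.20. A probe for AL050131 that lies between the PTOV1 probes on the opposite strand read 106 and 101, a log2 ratio of -0.10 ± 0.21. That single probe did not read higher, and a difference between the strands was not tested. AES (now TLE5), a short Groucho-family corepressor, was the member nearest to the threshold, with 26.2 and 41.4 at one probe (0.62 ± 0.33) and 28.7 and 36.2 at the other (0.30 ± 0.29). A further AES probe was too dim to count as measured. ENC1, a kelch-repeat protein of the nervous system that binds actin, read 48.4 and 72.2 at one probe and 27.4 and 42.2 at the other, with log2 ratios of 0.54 ± 0.25 and 0.59 ± 0.33. Its lower ratio was the highest of the members after MAFG and SYTL1, although both its probes were dim.

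**Figure D2:**
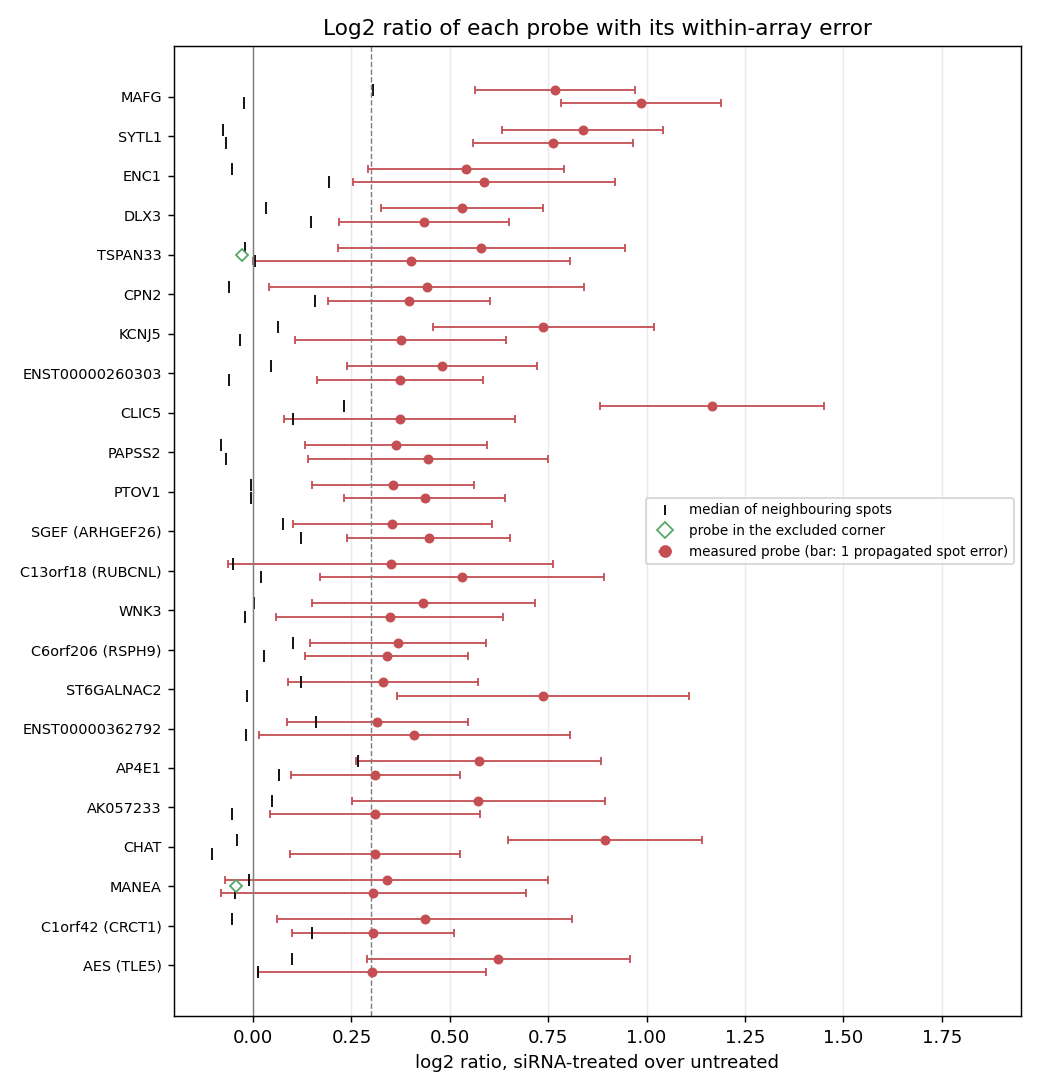
Log2 ratio of each measured probe, siRNA-treated over untreated, with its propagated spot error (bars, 1 error), 2 probes a gene for 23 of the 24 genes; the dashed line is the threshold of 0.3, black ticks the median of the spots around the probe, and open diamonds probes of the same gene in the excluded corner. For TSPAN33 and MANEA the corner probe lies at -0.03 and -0.04.

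Among the genes of membrane traffic, AP4E1, the large epsilon subunit of the AP-4 adaptor complex, read 28.6 without and 43.6 with the siRNA (0.57 ± 0.31) and 108 and 137 (0.31 ± 0.21). The spots around the former probe had a median log2 ratio of 0.27. SGEF (now ARHGEF26), an exchange factor that activates RHOG, read 218 and 304 at the brighter probe (0.45 ± 0.21) and 52.3 and 68.6 at the other (0.35 ± 0.25), and these probes carry different accessions. C13orf18 (now RUBCNL), a protein of autophagosome maturation, was near the background at both probes, with 18.4 and 24.01 (0.35 ± 0.41) and 19.6 and 29.0 (0.53 ± 0.36). One of its 2 ratios was thus smaller than its own error. TSPAN33, a tetraspanin of the group that carries the protease ADAM10, read 24.04 and 36.8 (0.58 ± 0.36) and 18.4 and 24.9 (0.40 ± 0.40). Its brightest probe, which lay in the excluded corner, read 595 and 599, a log2 ratio of -0.03 ± 0.20. The brightest TSPAN33 probe thus did not read higher, while the errors at the 2 dim probes were large, at 0.36 and 0.40.

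Ion channels and their regulators were all read at low signal. KCNJ5, an inwardly rectifying potassium channel opened by G proteins, read 34.1 and 58.3 at one probe (0.74 ± 0.28) and 38.1 and 50.6 at the other (0.37 ± 0.27), only 322 bases apart. CLIC5, a chloride intracellular channel protein linked to the actin cortex, had the single largest ratio, with 30.5 without and 70.3 with the siRNA at one probe (1.17 ± 0.28) and 28.3 and 37.5 at the other (0.37 ± 0.29). The CLIC5 probes were equally dim and differed by 0.79 on the log2 scale, the widest gap of any member. The spots around the former CLIC5 probe had a median log2 ratio of 0.23, and those around the latter 0.10. With these medians subtracted, the lower ratio of CLIC5 was 0.27, under the threshold. WNK3, a kinase that sets the activity of cation-chloride cotransporters, read 30.6 and 42.4 (0.43 ± 0.28) and 30.7 and 40 (0.35 ± 0.29), both near each other in level and ratio.

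The transcript listed as ENST00000260303 is described at one of its probes as FXYD2, the gamma subunit of the sodium pump, but its probes lie on the plus strand of chromosome 11 while the 2 probes that the array names FXYD2 lie on the minus strand of the same span. One probe from each overlap by 14 bases at chr11:117196200-117196213 (hg17), and the array's own letters there are the reverse complement of each other.
ENST00000260303 probe, plus strand: acaaaggtctaaag
FXYD2 probe, minus strand: ctttagacctttgt
The plus-strand probes read 52.8 without and 75.5 with the siRNA (0.48 ± 0.24) and 114 and 152 (0.37 ± 0.21). The measured FXYD2 probe read 236 and 229, a log2 ratio of -0.08 ± 0.21, and the other FXYD2 probe, in the excluded corner, read 113 and 159 (0.46 ± 0.22). By the array's coordinates the ENST00000260303 probes thus read the strand opposite to the FXYD2 probes, but the strand of the gene could not be checked. On the FXYD2 strand the measured probe did not read higher, while the corner probe, which is the overlapping one, did.

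Enzymes made up the next group. CHAT, choline acetyltransferase, which makes the transmitter acetylcholine, was read by 2 probes that both cross splice junctions and lie 33065 bases apart, the widest distance of any member. The former, chr10:50527661-50529967 (hg17, plus strand), read 45.2 without and 86.1 with the siRNA (0.89 ± 0.25), and the latter, chr10:50494596-50497777, read 86.0 and 109 (0.31 ± 0.22).
CHAT probe with the higher ratio: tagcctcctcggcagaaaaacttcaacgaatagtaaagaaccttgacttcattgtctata
CHAT probe with the lower ratio: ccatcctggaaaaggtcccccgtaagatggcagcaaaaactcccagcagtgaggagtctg
The CHAT probes therefore differed by 0.58, more than either error. PAPSS2, which makes the sulfate donor PAPS, read 59.9 and 79.0 (0.36 ± 0.23) and 25.9 and 36.2 (0.44 ± 0.31). ST6GALNAC2, a sialyltransferase of O-linked sugar chains, read 58.1 and 74.8 (0.33 ± 0.24) and 19.1 and 32.6 (0.74 ± 0.37), from 2 accessions. MANEA, the Golgi endo-alpha-mannosidase that trims N-linked chains, had the lowest mean ratio of the members, with 21.2 and 27.5 (0.34 ± 0.41) and 22.1 and 28.0 (0.31 ± 0.39). Both MANEA ratios were below their errors, and its remaining probe, in the excluded corner, read 28.7 and 28.6 (-0.04 ± 0.31). CPN2, the noncatalytic subunit of the plasma enzyme carboxypeptidase N, read 259 and 349 at one probe (0.40 ± 0.21) and 17.4 and 24.3 at the other (0.44 ± 0.40). These CPN2 probes start 219 bases apart, the shortest distance of any member, and differed 14.9-fold in brightness but by 0.05 in log2 ratio.

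Last came genes of other or unknown function. C6orf206 (now RSPH9), a radial spoke head protein of motile cilia, read 196 without and 255 with the siRNA (0.34 ± 0.21) and 66.3 and 87.8 (0.37 ± 0.22). Its probes are 16105 bases apart and carry 2 accessions, yet their ratios lay within 0.03 of each other, the closest of any member. C1orf42 (now CRCT1), of the epidermal differentiation cluster, read 378 and 479 (0.30 ± 0.21) and 20.1 and 27.9 (0.44 ± 0.37). ENST00000362792 on chromosome X read 66.8 and 85.2 (0.32 ± 0.23) and 16.7 and 22.7 (0.41 ± 0.40). AK057233, an uncharacterized cDNA on chromosome 4, read 23.4 and 35.7 (0.57 ± 0.32) and 37.0 and 46.9 (0.31 ± 0.27). None of these 4 members reached a log2 ratio of 0.6 at either probe.

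Over all 24 members, 44 of the 48 ratios were larger than their own error and 14 were larger than 2 times their error. The rule asks for ratios of 0.3 or more and the median error of these probes was 0.25. The former count thus largely follows from the rule, and shares over other probes were not computed. In 4 members both ratios passed 2 times their error, among them MAFG, SYTL1 and DLX3. The median ratio per probe was 0.43, and 4 members had a mean fold of 1.5 or more. Between the 2 probes of a member the ratios differed by 0.03 to 0.79 with a median of 0.10, against a median of 0.20 for all genes with 2 measured probes. The rule, which sets a floor under both probes, bears on that gap. In 18 members the dimmer probe had the higher ratio. The members were chosen by these ratios, and the share over all genes with 2 measured probes was not computed. Just inside the threshold at their lower probe lay AES and C1orf42 at 0.30 and MANEA, CHAT and AK057233 at 0.31, and just outside it THRA and TRIM45 at 0.29, POU3F1 and DNPEP at 0.28 and CDH4 at 0.27.

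**Figure D3:**
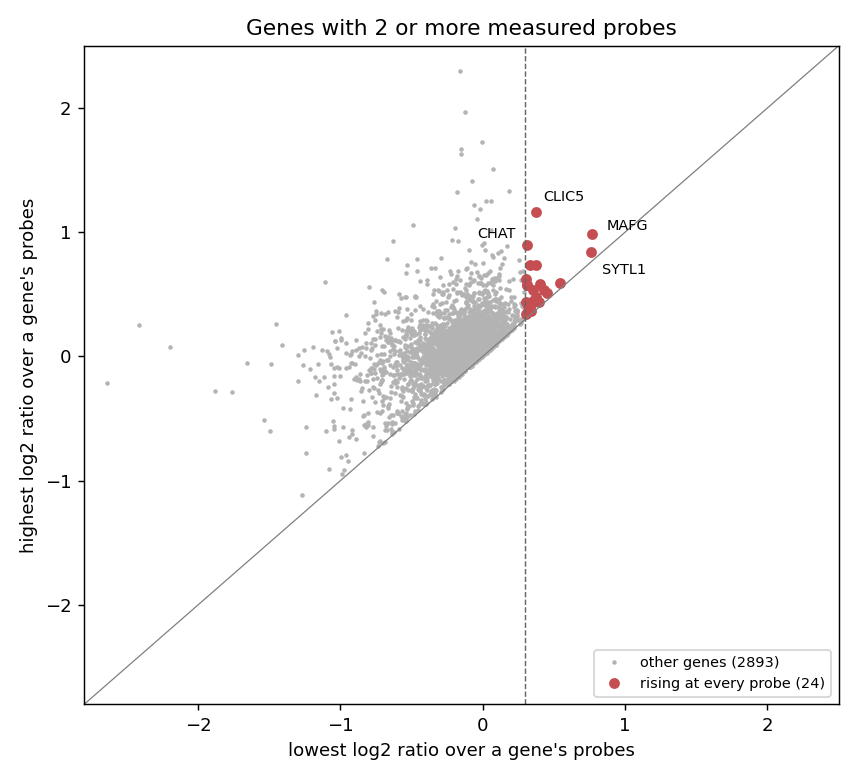
Highest against lowest log2 ratio (siRNA-treated over untreated) over the measured probes of each of the 2917 genes with 2 or more measured probes, with the 24 genes higher at every probe in red and the threshold of 0.3 as the dashed line. MAFG and SYTL1 stand at lowest ratios of 0.77 and 0.76, apart from the other members at 0.54 or less, and CLIC5 and CHAT lie far above the diagonal, where the 2 probes of a gene would agree.

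The genes that work with the members were mostly near 0. These partner genes were listed by the biology of the members, with earlier results of these data known. Of 74 partner genes 49 were measured, 1 was at 0.3 or more at every probe and 4 were at -0.3 or less. Their median log2 ratio was -0.04, beside -0.02 for all 19098 measured genes, of which 6.83% were higher and 11.1% lower by the same thresholds. The 1 higher gene was BACH2, a repressor that pairs with small MAF proteins, which read 1564 without and 3463 with the siRNA, a log2 ratio of 1.11 at its single probe. The other partners of MAFG read lower than that. NFE2L2, the stress factor that pairs with MAFG, read 39.6 and 49.8 (0.30, just under the threshold), and the sister gene MAFK was at 0.05 and 0.09 at its 2 probes. NFE2L1 ran from -0.58 to -0.07 over 3 probes, and NFE2 was at -0.11. Among 11 measured genes of the NFE2L2 and redox list, 0 were at 0.3 or more, while TXN was at -0.44, with a median of -0.08.

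For SYTL1, its binding partners RAB27A and RAB27B were at 0.01 and 0.05, and of its sister genes SYTL5 was at -0.04 and SYTL3 at -0.42. For DLX3, DLX1 was at -0.04 and DLX2 at 0.06 and -0.04. Groucho genes beside AES included TLE1 at -0.28, TLE2 at 0.03, TLE4 at -0.16 and TLE3 at 0.13 and -0.62. DLX6 was well above background with the siRNA only, reading 14.5 without and 30.0 with it, so its ratio is not firm. DLX4 and DLX5 were not well above background on either array. The protease ADAM10, carried by TSPAN33 and its relatives, read 343 and 173, a log2 ratio of -1.03, and TSPAN15 was at -0.32. The channels that pair with KCNJ5 (KCNJ3, KCNJ6 and KCNJ9) were not measured. Beside CHAT, the vesicular acetylcholine transporter SLC18A3 was at 0.09 and acetylcholinesterase ACHE at -0.23. PAPSS1, which makes the same sulfate donor as PAPSS2, was at 0.10, and CPN1, the catalytic partner of CPN2, at -0.07. RHOG, the target of SGEF, was at -0.10, and AP4M1, another AP-4 subunit, at -0.01. Of the sodium pump genes and their FXYD regulators, ATP1B1 was at -0.44, ATP1B2 at 0.15 and FXYD5 at 0.14 and 0.21. Some single probes of other partners were higher, with the mannosidase MAN1A1 at 0.53 and -0.12, ST6GALNAC5 at 0.30 (just under the threshold) and CLIC4 at 0.24.

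**Figure D4:**
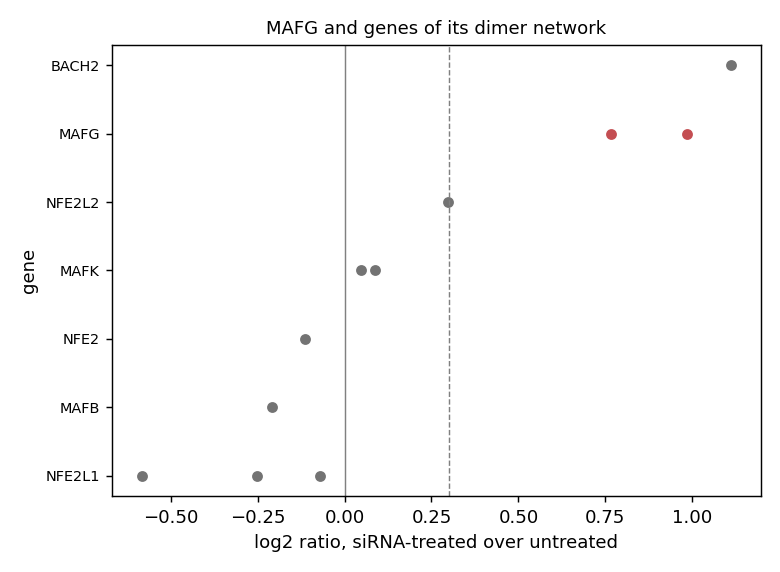
Log2 ratio (siRNA-treated over untreated) of each measured probe of MAFG (red) and of the genes of its dimer network (grey), with the threshold of 0.3 dashed. BACH2 at 1.11 lies above both MAFG probes, and the other genes lie at 0.30 or less.

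The list of members depended on how the background was handled. When the raw median brightness of each spot was used, which is what the series' own value table holds, 4 genes were higher at every probe by the same rule, and they were MAFG, SYTL1, DLX3 and PTOV1, all of them members. The same 4 were found with another background model (normexp, fitted without the 1 spot that was dimmer than its local background). All 24 members had a mean ratio above 0 in both, from 0.02 to 0.82 in the raw brightness and from 0.08 to 0.87 in the model. In the raw brightness 23 of 24 had both probes above 0. These are the same spots by which the members were chosen, so the signs are no independent support. Background left in a signal, or the offset of 50 that normexp adds, draws the ratio of a dim spot toward 0. The raw array medians were 120 untreated and 123 siRNA-treated, against 48.9 and 50.1 in the processed signal. How far this set which members were kept was not tested. With the spot dimmer than its local background kept in the fit, the model shifted the median log2 ratio of all measured spots to -0.22. Of the 24 members 0 were kept, 20 had a mean ratio above 0 and 14 had both probes above 0. With the median of the neighbouring spots subtracted from each ratio, 14 of the 24 were kept, and DLX3, CPN2, CLIC5, SGEF, C6orf206, ST6GALNAC2, ENST00000362792, AP4E1, C1orf42 and AES were lost. MAFG, SYTL1 and PTOV1 were kept in 7 of the 8 such settings and DLX3 in 6, while AES was kept in 3. These counts include the scalings that raise every ratio by the same amount and could lose no member.

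**Figure D5:**
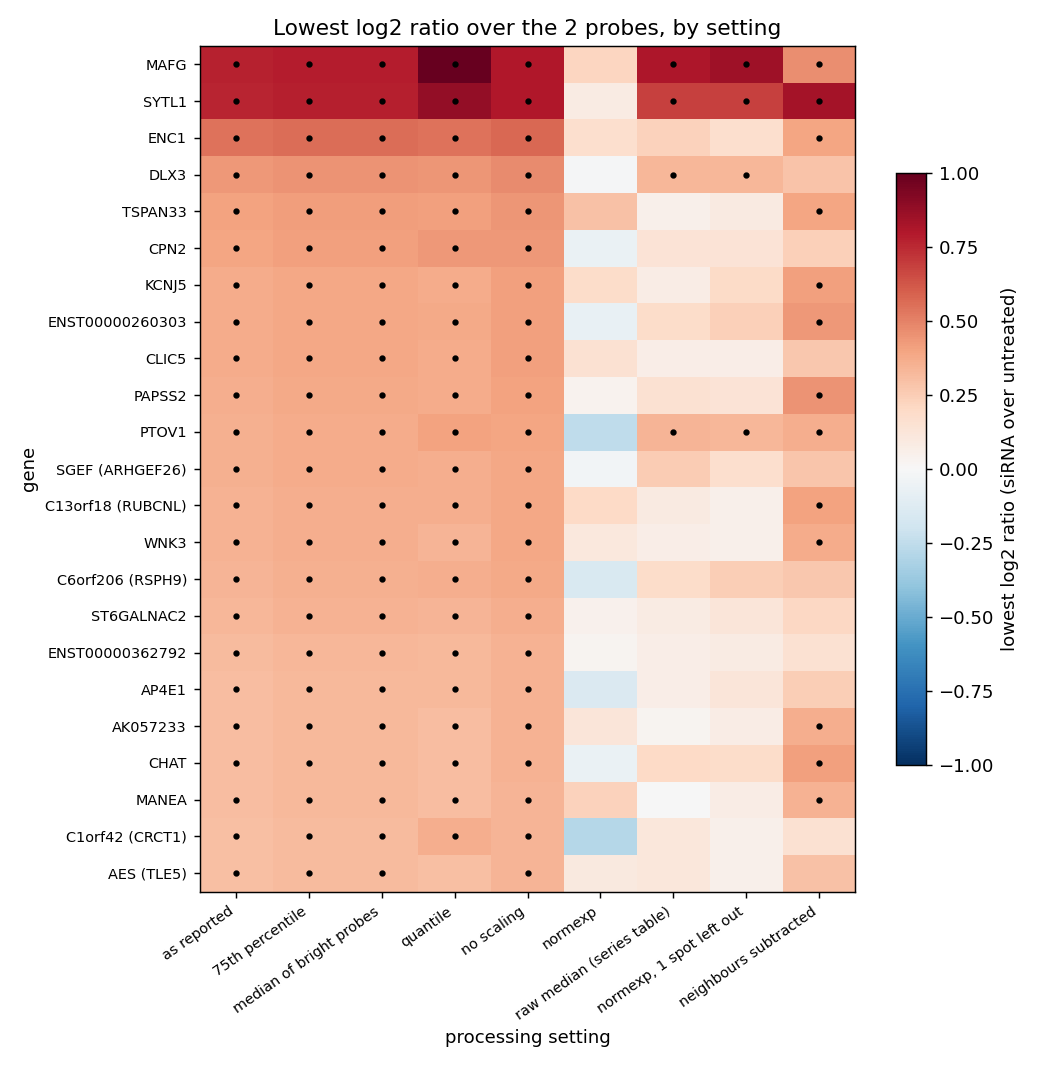
Lowest log2 ratio (siRNA-treated over untreated) over the 2 probes of 23 of the 24 genes as reported and under 8 other ways of scaling and background correction, with a black dot where it is 0.3 or more. MAFG, SYTL1 and PTOV1 keep their dot in 7 of the 8 settings, and the columns for raw brightness and for normexp without 1 spot hold 4 dots each.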

How the data were processed

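Total RNA of the 2 samples was labeled with Cy3 by T7-based linear amplification and hybridized to 1-color Agilent 4x44k arrays, 1 array per group. The deposited files hold spot intensity values made by the authors with Agilent Feature Extraction (9.5.3.1 by the file headers), background-subtracted and corrected for trends within the array but not scaled between arrays. Probe positions come from the array's own annotation (hg17). Each array was divided here by the median of its 43376 non-control spots, as the series text describes, and spots of a probe were averaged on the log2 scale. The neighbouring spots of a probe were the measured spots within 5 rows and columns. Spot errors were those of the software, and the technical SD came from probes printed repeatedly. No test or p-value was computed, since the number of arrays limits the precision and spots are not replicates of a condition.

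The members, the corner of the array that was left out, the gene lists and the partner genes were chosen with earlier results of these data known. The members named are 23 of the 24 (the values of 1 are not reported here), with the 5 genes nearest below the threshold. Symbols were updated through RefSeq (GRCh38.p14): 21 of 24 were found, 5 of them under an older symbol. Analysis used Python 3.11.15 with pandas 2.3.3 and numpy 2.4.6, and limma 3.58.1 in R 4.3.3 for normexp (offset 50) and quantile normalization. Other scalings, filters, thresholds and probe numbers were tried as alternatives, and the neighbour subtraction, the normexp fit without 1 spot and the other splits by signal were chosen after seeing the data.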

Additional observations from a re-analysis of the deposited data

How the results depend on the processing

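Other scalings gave 26 genes (the 75th percentile, or the median of bright probes), 32 (quantile) and 34 (no scaling) in place of 24. Each kept all 24 members except quantile normalization, which lost AES. All but quantile normalization raise every ratio by the same amount, so they could lose no member. The count fell to 4 genes, all of them members, with the raw median brightness and with normexp without 1 spot, and to 1 gene, which is not a member, with normexp on all spots. Under the last setting the mean log2 ratio was -0.22 for PTOV1, -0.051 for C6orf206 and -0.036 for C1orf42, and 0 of 24 members were kept. The neighbour median kept 14 members and added others to reach 22. A threshold of 0.2 gave 60 genes, one of 0.5 gave 3 (MAFG, SYTL1 and ENC1), and asking for 3 or more probes gave 0. With the corner kept the rule gave 34 genes and 21 of the members, losing TSPAN33 and MANEA among others, and with probes that had a background outlier flag left out it gave 21, losing KCNJ5, MAFG and ENC1, which carry that flag. Keeping saturated spots, or probes starting at least 60 bases apart, gave 24. The cause of these differences was not tested, except that the last filters act through the probes they add or drop. No paired analysis was possible because each group has 1 array, and for the same reason no array could be left out. Dim signal limits 30 of the 48 member probes, which read under 60.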

Other observations

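Genes with probes in the corner at rows from 355 and columns from 43 were outside the rule. With that corner kept, 34 of 3966 genes (0.857%) were higher at every probe, beside 0.823% without it, and 13 of the 34 were not members. LFNG, a sugar transferase that modifies Notch, was at 1.05 and 1.15 with both probes in the corner, and the beta-tubulin gene TUBB2A was at 0.77 and 1.27 with 1 of its probes there. NTN1, the axon guidance protein netrin, was at 0.36 and 0.85, and CEP135, a centriole protein, at 0.49 and 0.58. NDUFA10, a subunit of respiratory complex I, was at 0.52 and 0.91. Keeping probes that were well above background on 1 array only gave 28 of 3292 genes (0.851%). It added 4 genes, UQCRFS1, PPID, MGC27345 and FLJ14213. Both UQCRFS1 probes were well above background with the siRNA only. They read 12.1 without and 21.0 with it at one probe and 16.4 and 40.2 at the other. PPID was at 0.65 at its measured probe, and its other probe, well above background with the siRNA only, read 17.0 and 22.9. A reading not well above background sets no firm level, so no least fold is given for these probes. No explanation of these values was tested.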
